A study of Mus musculus with 8 samples.

Results

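The inflammasome and interleukin-1 (IL-1) family genes Nlrp3, Pycard, Casp1, Casp4, Gsdmd, Il1a, Il1b, Il1rn, Il18 and Il18bp were read by name from the expression table of a macrophage RNA-sequencing experiment, and all 10 were among its 23761 listed genes. The cells were bone marrow-derived macrophages (BMDMs), which are macrophages grown from marrow, here for 6 days in medium conditioned by L929 fibroblasts. The control group, LysM, had the genotype LysM Cre/Cre and the knockout group, K2KO, had LysM Cre/Cre KLF2 flox/flox, so both carried Cre recombinase at the lysozyme M gene, which is active in myeloid cells, and only K2KO carried floxed Klf2. Mice were 3 months old, 4 per group, and the column names mark all 8 libraries as vehicle-treated. Total RNA was sequenced and the values are FPKM, which are fragment numbers divided by the length of the transcript and by the mapped total of the library. Each library is called by its group and the number that ends its column name (LysM0, K2KO0 and so on), because a column shows its genotype and not which mouse it came from.

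An inflammasome is a protein complex that assembles in the cytosol when a sensor such as NLRP3 detects infection or damage. The adaptor ASC, encoded by Pycard, links the sensor to caspase-1, which cleaves the precursors of IL-1β and IL-18 and opens gasdermin D, the pore through which these cytokines leave the cell and by which it can die. In resting macrophages Il1b and Nlrp3 transcripts are typically kept low until a priming signal through NF-κB, and outside the cell the receptor antagonist encoded by Il1rn and the IL-18 binding protein counter the cytokines. KLF2 is a zinc finger transcription factor of the Krüppel-like family, whose members bind CACCC-type DNA sequences. The comparison asked whether transcripts of these genes differed between the genotypes in cells that had received no inflammatory stimulus by their labels.

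None of the 9 genes that could be tested passed the thresholds in either direction, while 18.4% of the 10920 tested genes did, 9.84% as higher and 8.61% as lower in the libraries labelled K2KO. That share rests on 2014 genes, a number that ranged from 337 to 2837 with each library left out in turn. Whether 0 of 9 differs from that share was not tested, and 9 genes are few for such a comparison. Gsdmd, the pore former, had the smallest p, with a fitted ratio of the libraries labelled K2KO to LysM of 0.862, and Il1rn, the IL-1 receptor antagonist, had the next smallest, with a fitted ratio of 1.32. Il1b had the lowest fitted ratio, 0.740, with a 95% interval that reached from 0.462 to 1.19. Expression was compared with limma on the log2(FPKM + 0.1) scale for genes with a mean of at least 1 FPKM, which Il1a did not reach. A gene was taken as differentially expressed where its Benjamini-Hochberg adjusted p was under 0.05 and its log2 fold change beyond 0.26 in size, and log2 fold changes are those of the libraries labelled K2KO against LysM.

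For 3 of the 10 genes the 250 bases before a RefSeq transcription start held the letters CACCC or, on the other strand, GGGTG. These stretches are shown because CACCC is the core of the sequence type that KLF2 binds. They come from RefSeq on GRCm38.p6, run 5′ to 3′ along the strand of the gene and end at the base before its start, with each match in capitals. For Il1b the stretch is chr2:129371140-129371389 on the minus strand, with matches that begin 196 and 106 bases before the start. For Pycard it is chr7:127993868-127994117 on the minus strand, with matches at 63 and 50 bases. For Il1rn it is chr2:24336610-24336859 on the plus strand, before the first of its 3 RefSeq starts, with a match at 237 bases.
Il1b: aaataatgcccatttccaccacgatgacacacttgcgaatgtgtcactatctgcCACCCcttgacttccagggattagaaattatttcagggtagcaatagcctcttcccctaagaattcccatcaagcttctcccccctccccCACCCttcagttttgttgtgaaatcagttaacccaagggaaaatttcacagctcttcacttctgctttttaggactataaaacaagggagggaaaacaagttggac
Pycard: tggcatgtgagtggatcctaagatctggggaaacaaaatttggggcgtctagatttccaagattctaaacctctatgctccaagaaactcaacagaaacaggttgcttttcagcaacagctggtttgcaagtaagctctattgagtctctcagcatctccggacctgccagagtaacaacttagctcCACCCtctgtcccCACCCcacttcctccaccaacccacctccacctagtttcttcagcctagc
Il1rn: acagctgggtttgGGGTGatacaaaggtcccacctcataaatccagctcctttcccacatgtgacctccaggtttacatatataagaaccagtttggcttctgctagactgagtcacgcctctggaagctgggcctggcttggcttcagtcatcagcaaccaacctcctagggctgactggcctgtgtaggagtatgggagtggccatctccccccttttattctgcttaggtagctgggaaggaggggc
The same search found a match in 52.0% of all 32851 RefSeq promoter entries and in 3 of the 13 entries of these genes, which belong to 3 of the 9 genes that have one. The 6 others with an entry, Nlrp3, Casp1, Casp4, Il1a, Il18 and Il18bp, had no match of these letters in this window, and Gsdmd is named only. A match is a description of the sequence and not a binding site.

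Klf2, the targeted gene, lies at chr8:72319033-72321656 of GRCm38 on the plus strand. Its expression was 44.1, 52.9, 64.7 and 72.8 FPKM in LysM0 to LysM3 and 45.5, 41.6, 59.2 and 59.3 FPKM in K2KO0 to K2KO3. The K2KO libraries lay within the range of the LysM libraries apart from K2KO1, which was just under it. The means were 58.7 ± 12.7 and 51.4 ± 9.22 FPKM (SD, n = 4 each), and the log2 fold change was -0.18 (SE 0.172, 95% interval -0.57 to 0.21, limma adjusted p = 0.460). It was -0.31 without LysM0 (limma adjusted p = 0.178), -0.070 without LysM3 and -0.087 without K2KO1. When a local regression on GC content and transcript length was taken out of each library, its sign turned, to 0.039. Transcript levels of Klf2 therefore did not separate the labelled genotypes, and FPKM summarise the whole gene, not the floxed exons. The genotypes below are given as labelled.

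The depth of the libraries relative to LysM0, from the size of the steps between low values, ranged from 0.877 to 1.44, without a difference between the groups beyond their spread (p = 0.657, exact two-sided permutation test). The summed FPKM ranged from 448235 to 551608, and K2KO3 alone of the K2KO libraries exceeded a LysM library, LysM0 (exact two-sided permutation test, p = 0.0571). Gapdh, a gene of glycolysis that every cell uses, was listed at 0 to 0.4999 FPKM, while Actb ranged from 1962 to 2949 FPKM. A value near 0 in this table was for that reason not read as absence of a transcript. Actb itself was lower in K2KO, at 2820 ± 138 FPKM in LysM and 2188 ± 218 in K2KO (SD, n = 4 each). Its log2 fold change was -0.37 (limma adjusted p = 0.0239), and it passed the thresholds in 2 of 8 fits with a library left out. All 9 macrophage markers exceeded 1 FPKM on average, led by Cd68 at 1807 FPKM, so the defining markers of the labelled cell type were present.

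**Figure D1:**
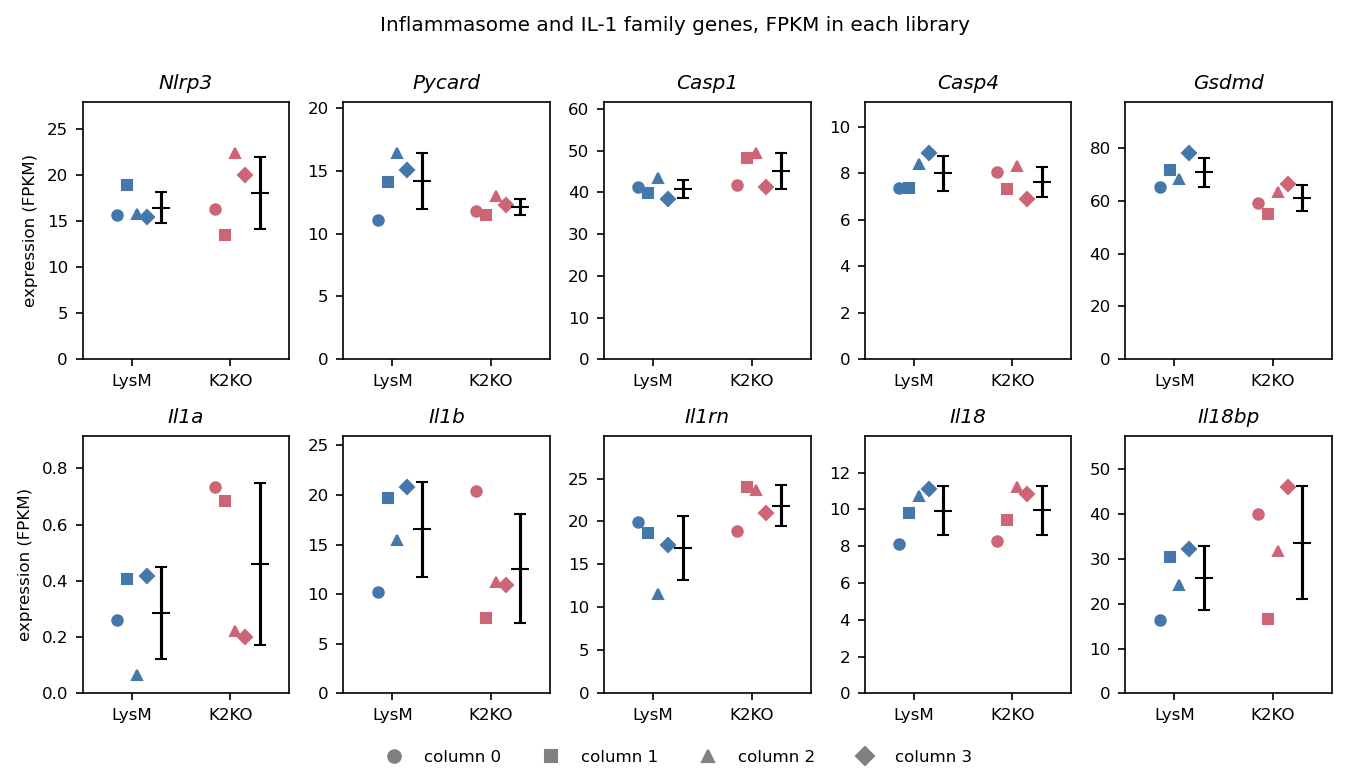
Expression in FPKM of the 10 genes in each library, with 4 LysM (blue) and 4 K2KO (red) libraries per panel, marker shapes for the number that ends the column name, and bars for the mean ± SD. The y axes start at 0 and differ between panels, and in all 10 panels the groups overlap.

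Nlrp3, the sensor, lies at chr11:59541568-59566956 on the plus strand. Its expression was 15.6, 18.9, 15.7 and 15.4 FPKM in LysM0 to LysM3 and 16.3, 13.4, 22.4 and 19.9 FPKM in K2KO0 to K2KO3. The K2KO libraries included both the lowest and the highest of the 8, and LysM1 stood above the other 3 LysM libraries, which were almost level. The log2 fold change was 0.11 (SE 0.148, 95% interval -0.22 to 0.45, limma adjusted p = 0.602). With libraries left out in turn it ranged from 0.00031, without K2KO2, to 0.24, without K2KO1, and was 0.18 without LysM1 and 0.055 without K2KO3. It was 0.075 with the GC and length correction.

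Pycard, which encodes the adaptor ASC, lies at chr7:127989708-127993867 on the minus strand. It was listed at 11.1, 14.1, 16.4 and 15.1 FPKM in LysM0 to LysM3 and at 11.8, 11.5, 13.0 and 12.3 FPKM in K2KO0 to K2KO3. The 4 K2KO libraries were close together, and 3 of the LysM libraries lay above all of them, whereas LysM0 was the lowest of the 8. The log2 fold change was -0.21 (SE 0.110, 95% interval -0.46 to 0.04, limma adjusted p = 0.189). Without LysM0 it was -0.32 with a limma adjusted p of 0.0216, which passes the thresholds, so the call for Pycard depended on that single library. Without LysM2 the log2 fold change was -0.14 (limma adjusted p = 0.394). With the GC and length correction it was -0.31 (limma adjusted p = 0.0800). The gene Gm45205 on the opposite strand covers 12.8% of the exonic bases of Pycard, and the position listed in the table for Pycard runs to the end of that gene.

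Casp1, whose product cleaves the IL-1β and IL-18 precursors, and Casp4, whose product in mice, caspase-11, responds to lipopolysaccharide in the cytosol, are neighbours on chromosome 9. Casp1, at chr9:5298517-5307265 on the plus strand, was measured at 41.4, 40.0, 43.5 and 38.4 FPKM in the LysM libraries and at 41.7, 48.3, 49.4 and 41.2 FPKM in the K2KO libraries. K2KO1 and K2KO2 stood above the LysM range and the other two K2KO libraries lay inside it, for a log2 fold change of 0.14 (SE 0.0777, 95% interval -0.03 to 0.32, limma adjusted p = 0.207). It was 0.049 with the GC and length correction and 0.22 under quantile normalization. Casp4, at chr9:5308828-5336783 on the plus strand, was measured at 7.38, 7.36, 8.41 and 8.86 FPKM in the LysM libraries and at 8.04, 7.30, 8.29 and 6.88 FPKM in the K2KO libraries. The groups overlapped, with a log2 fold change of -0.07 (SE 0.0861, 95% interval -0.26 to 0.13, limma adjusted p = 0.590). It was -0.22 with the GC and length correction (limma adjusted p = 0.0657) and -0.11 under quantile normalization. With libraries left out in turn it ranged from -0.11, without K2KO2, to -0.018, without LysM3. The mean expression of Casp1 was above that of Casp4 in both groups, as compared per length of transcript.

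Gsdmd, which encodes the pore-forming gasdermin D, lies at chr15:75862327-75867408 on the plus strand and was the most abundant of the 10 genes per length of transcript. Its expression was 65.1, 71.6, 68.2 and 78.0 FPKM in LysM0 to LysM3 and 59.2, 55.0, 63.4 and 66.2 FPKM in K2KO0 to K2KO3. Every K2KO library but K2KO3 lay below all LysM libraries, and K2KO3 exceeded LysM0 alone. The means were 70.7 ± 5.54 and 60.9 ± 4.94 FPKM (SD, n = 4 each), with a log2 fold change of -0.21 (SE 0.0800, 95% interval -0.39 to -0.03). The unadjusted limma p was 0.0246 and the limma adjusted p was 0.0833, and an exact two-sided permutation test gave p = 0.0571. The interval leaves out a ratio under 0.761 and over 0.977. Without K2KO3 the limma adjusted p was 0.0443, with a log2 fold change of -0.26 that stayed just inside the fold threshold. With the GC and length correction the log2 fold change was -0.098 (limma adjusted p = 0.255), and under quantile normalization it was -0.0995 (limma adjusted p = 0.279).

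Among the cytokines, Il1a encodes a form of IL-1 whose precursor is itself active and is released by damaged cells. The gene lies at chr2:129299610-129309972 on the minus strand, and was listed at 0.261, 0.406, 0.0664 and 0.417 FPKM in LysM0 to LysM3 and at 0.733, 0.686, 0.223 and 0.202 FPKM in K2KO0 to K2KO3. The K2KO libraries split into 2 above all LysM libraries and 2 among them. With the limit on mean expression lowered to 0.1 FPKM, the log2 fold change was 0.51 (SE 0.478, 95% interval -0.58 to 1.59, limma adjusted p = 0.496), and 12.7% of all genes tested at that limit passed the thresholds. The gene Gm14023 on the opposite strand covers 11.3% of the exonic bases of Il1a and was listed at 0.0850 to 0.403 FPKM, the same order of level as Il1a, and the position listed in the table for Il1a covers both genes. Since the use of strand in the FPKM is not stated, reads from the shared bases cannot be told apart.

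Il1b lies at chr2:129364570-129371139 on the minus strand and carries the paired CACCC matches shown above. Its expression was 10.2, 19.6, 15.5 and 20.8 FPKM in LysM0 to LysM3 and 20.4, 7.64, 11.2 and 11.0 FPKM in K2KO0 to K2KO3. In each group 1 library went with the other group, since LysM0 lay below K2KO2 and K2KO3, and K2KO0 lay above all LysM libraries but LysM3. The means were 16.5 ± 4.77 and 12.6 ± 5.48 FPKM (SD, n = 4 each), with a log2 fold change of -0.43 (SE 0.302, 95% interval -1.12 to 0.25, limma adjusted p = 0.315). Leaving out each library in turn moved it between -0.70, without K2KO0, and -0.23, without K2KO1, with limma adjusted p-values no lower than 0.109. The spread of Il1b among libraries of a genotype exceeded that of 96.4% of the tested genes. The antisense gene Il1bos shares 1.31% of the exonic bases of Il1b and reached only 0.0389 FPKM, although the position listed for Il1b runs to its end.

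Il18, at chr9:50554827-50581840 on the plus strand, encodes the second cytokine that caspase-1 matures. Its expression was 8.11, 9.79, 10.7 and 11.1 FPKM in LysM0 to LysM3 and 8.31, 9.42, 11.2 and 10.9 FPKM in K2KO0 to K2KO3. The groups covered almost the same range. The log2 fold change was 0.0032 (SE 0.121, 95% interval -0.27 to 0.28, limma adjusted p = 0.988). The sign turned under upper-quartile scaling, quantile normalization and the correction for GC content and length. The position listed in the table for Il18 begins at 50575272, inside the annotated gene.

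Of the inhibitors, Il1rn encodes the receptor antagonist, which occupies the IL-1 receptor without signalling, and lies at chr2:24336853-24351494 on the plus strand. It was measured at 19.96, 18.7, 11.5 and 17.3 FPKM in LysM0 to LysM3 and at 18.9, 24.0, 23.6 and 20.97 FPKM in K2KO0 to K2KO3. The K2KO libraries K2KO1, K2KO2 and K2KO3 lay above all LysM libraries, K2KO0 lay between LysM1 and LysM0, and LysM2 was far below the rest. The means were 16.9 ± 3.71 and 21.9 ± 2.41 FPKM (SD, n = 4 each), with a log2 fold change of 0.40 (SE 0.162, 95% interval 0.03 to 0.76). The unadjusted limma p was 0.0369, the limma adjusted p was 0.109 and the exact two-sided permutation test gave p = 0.0571. Without LysM2 the log2 fold change was 0.22 and its limma adjusted p was 0.153. With the GC and length correction it was 0.27 (limma adjusted p = 0.322).

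Il18bp encodes the secreted protein that binds IL-18 and keeps it from its receptor. The gene lies at chr7:102014885-102018690 on the minus strand, and was measured at 16.4, 30.4, 24.2 and 32.1 FPKM in LysM0 to LysM3 and at 39.9, 16.7, 31.8 and 45.9 FPKM in K2KO0 to K2KO3. The lowest library of each group, LysM0 and K2KO1, were nearly level, and K2KO0 and K2KO3 exceeded all LysM libraries. The log2 fold change was 0.33 (SE 0.317, 95% interval -0.38 to 1.04, limma adjusted p = 0.467), and it was 0.63 without K2KO1 and 0.13 without LysM0. The spread of Il18bp among libraries of a genotype exceeded that of 96.7% of the tested genes, slightly more than for Il1b. Its last exon shares 2.64% of its exonic bases with Numa1 on the opposite strand, whose FPKM of 34.8 ± 0.453 in LysM and 31.6 ± 2.27 in K2KO (SD, n = 4 each) was of the same order as its own. The position listed in the table for Il18bp begins well inside Numa1, before the annotated gene.

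As a group, 5 of the 9 tested genes had a positive and 4 a negative log2 fold change, with a median of 0.0032 against 0.011 over all tested genes. By limma the count of differentially expressed genes was 0 of 9, with 2 (Gsdmd and Il1rn) at an unadjusted p under 0.05, where 37.8% of all tested genes were. Without the fold threshold the count was still 0, against 20.9% of all tested genes. Ordinary least squares also called 0, against 6.83%, with 1 at an unadjusted p under 0.05, against 35.5%. With no filter on low values the count was 0 of 10 against 5.13%. In none of the 10 did the 2 groups of libraries fail to overlap, against 23.1% of the tested genes. Whether these counts fall short of the shares over all tested genes was not tested, and 9 or 10 genes are few for that. A p-value above the threshold does not show that the genotypes were alike, and among the 9 tested genes the 95% intervals still allowed ratios as low as 0.462 for Il1b and as high as 2.06 for Il18bp. In these bulk libraries, fewer cells that express a gene and less of its RNA per cell cannot be told apart.

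In both genotypes the order of mean levels per length of transcript began with Gsdmd, Casp1, Il18bp and Il1rn and ended with Pycard, Il18, Casp4 and Il1a. Between these, Il1b came before Nlrp3 in LysM and after it in K2KO, and the ranges of that pair overlapped in both groups. Along the LysM order, neighbours that did not overlap were Gsdmd and Casp1, Casp1 and Il18bp, Pycard and Il18, and Casp4 and Il1a. In K2KO they were Gsdmd and Casp1, Pycard and Il18, Il18 and Casp4, and Casp4 and Il1a. The order of the other neighbours was within the spread of the libraries. Il1a, at 0.288 ± 0.164 FPKM in LysM and 0.461 ± 0.288 FPKM in K2KO (SD, n = 4 each), stood apart below the other 9 genes, all of which had means above 7 FPKM.

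LysM0 lay below the mean of the gene in 9 of the 10 genes, all but Il1rn, and K2KO1 did so in 7, whereas the other 6 libraries did so in 3 to 6. LysM0 was the lowest of the 8 for Pycard, Il18 and Il18bp, and K2KO1 was the lowest for Nlrp3, Gsdmd and Il1b. LysM3 was the highest for Casp4, Gsdmd and Il1b, and K2KO2 was the highest for Nlrp3, Casp1 and Il18. Measured from each gene's mean, the median over the 10 genes was lowest in LysM0, at -0.17 on the log2 scale, and highest in LysM3, at 0.19, both of the control genotype.

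**Figure D2:**
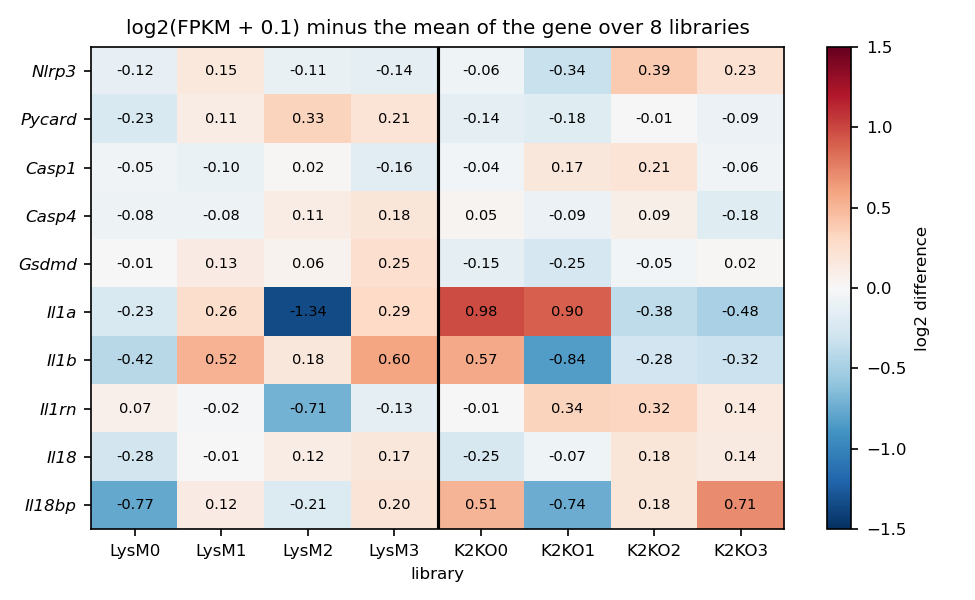
Log2(FPKM + 0.1) of each of the 10 genes (rows) in each library (columns) minus the mean of that gene over the 8 libraries, with red above and blue below the mean and the value printed in each cell. The black line parts LysM from K2KO, and the strongest colours belong to single libraries of Il1a, Il1b, Il1rn and Il18bp and not to a genotype.

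The balance of agonist and inhibitor was taken as the log2 ratio of their FPKM, each with 0.1 added, in the same library. For Il1b to Il1rn it was -0.96, 0.07, 0.42 and 0.26 in LysM0 to LysM3 and 0.11, -1.64, -1.07 and -0.93 in K2KO0 to K2KO3. LysM0 and K2KO0 each stood with the libraries of the other genotype. The means were -0.05 ± 0.62 and -0.88 ± 0.73 (SD, n = 4 each), a difference of -0.83 (exact two-sided permutation test, p = 0.143, and 0.429 adjusted over the 3 ratios). For Il18 to Il18bp the ratio ran from -1.63 to -1.01 in LysM and from -2.25 to -0.82 in K2KO, so that Il18bp exceeded Il18 in all 8 libraries. The difference was -0.33 (exact two-sided permutation test, p = 0.4, adjusted 0.6), and ranged from -0.61 without K2KO1 to -0.13 without K2KO0, with -0.22 without LysM0 and -0.19 without K2KO3. Il1a was far below Il1rn in all 8 libraries, with a difference between genotypes of 0.11 (exact two-sided permutation test, p = 0.8, adjusted 0.8) whose sign turned with a pseudocount of 1. With 4 against 4 libraries the smallest p that this test can give is 0.0286.

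**Figure D3:**
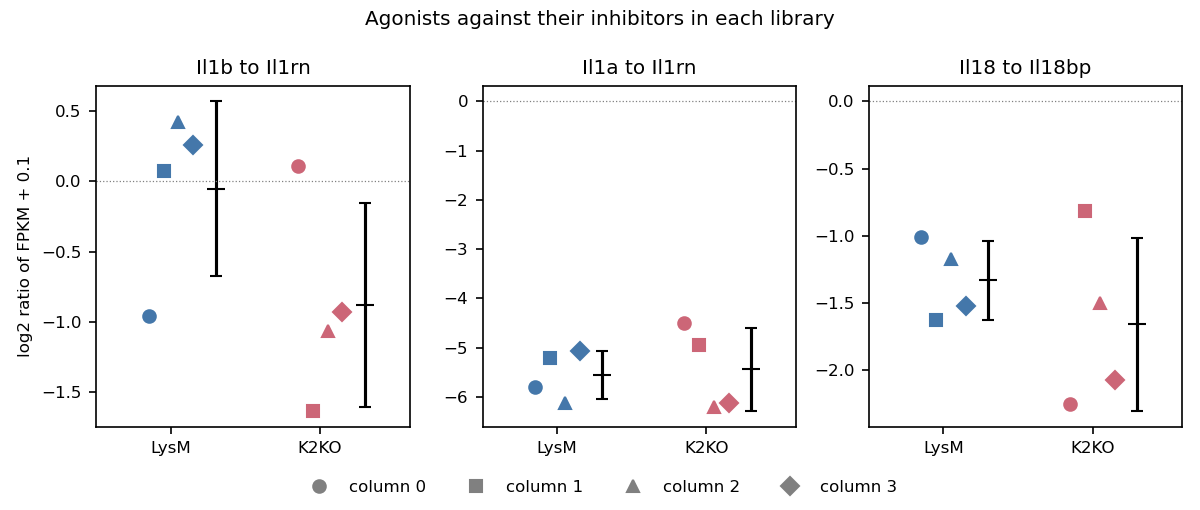
Log2 ratio of FPKM + 0.1 of each agonist to its inhibitor in each library (y axes, which differ in range), with LysM in blue, K2KO in red, marker shapes for the number that ends the column name and bars for the mean ± SD. A dotted line marks equal FPKM. The groups overlap in all 3 panels, and for Il1b to Il1rn LysM0 and K2KO0 sit among the libraries of the other genotype.

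Around these 10 genes, 77 other genes of the pathway were examined in 7 lists, of which 71 were listed in the table and 50 passed the limit of 1 FPKM. Of the 50, 8 were differentially expressed (16.0%, beside 18.4% of all tested genes), 5 as higher and 3 as lower in K2KO, with a median log2 fold change over the 50 of 0.05 against 0.01 for all tested genes. Of the 8, Ddx3x alone passed in all 8 fits with a library left out and in all 11 other settings of the analysis. Among sensors other than Nlrp3, 1 of 7 tested was higher and none lower. It was Nlrc4, which responds to bacterial flagellin through NAIP proteins, at 1.90 ± 0.0664 FPKM in LysM and 2.52 ± 0.374 in K2KO (log2 fold change 0.38, limma adjusted p = 0.0459). Nlrc4 passed in only 1 of 8 fits with a library left out and in 3 of 11 other settings. Aim2, a sensor of cytosolic DNA and the most abundant of this list, had a log2 fold change of 0.10 (limma adjusted p = 0.445). The Naip and Nlrp1 genes belong to multigene families of similar sequence. How alike the copies are was not measured here, and their values are treated as uncertain.

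Among 18 tested regulators of inflammasomes, 2 were higher and 1 lower. Ddx3x, an RNA helicase reported to take part in NLRP3 assembly, was listed at 27.1, 24.5, 28.6 and 23.7 FPKM in LysM0 to LysM3 and at 40.6, 41.0, 41.1 and 32.4 FPKM in K2KO0 to K2KO3. All K2KO libraries lay above all LysM libraries, with a log2 fold change of 0.57 (SE 0.0956, limma adjusted p = 0.0109). Brcc3, a deubiquitinase that acts on NLRP3, was higher with a log2 fold change of 0.42 (limma adjusted p = 0.0215). Pstpip1, a cytoskeletal adaptor that binds pyrin, was lower, from 76.1 ± 8.37 to 59.4 ± 5.68 FPKM (log2 fold change -0.35, limma adjusted p = 0.0345). Hsp90ab1, a chaperone and the most abundant of this list, had a log2 fold change of -0.14 (limma adjusted p = 0.219).

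Of 17 tested genes of signalling downstream of the IL-1 receptor, 2 were higher and none lower. They were Traf6, a ubiquitin ligase that relays the signal from the IRAK kinases (log2 fold change 0.28, limma adjusted p = 0.0296), and Ikbkg, the regulatory subunit of the IκB kinase complex (log2 fold change 0.42, limma adjusted p = 0.0216). Rela, an NF-κB subunit and the most abundant of this list, had a log2 fold change of -0.26 (limma adjusted p = 0.0608). Of the receptors themselves, Il1rap, the shared accessory chain, was the single one of 8 above 1 FPKM, at 1.15 ± 0.118 FPKM in LysM and 1.33 ± 0.218 in K2KO (SD, n = 4 each). Among other executioners of cell death, 0 of 3 tested passed by limma, with 1 at an unadjusted p under 0.05, and Ninj1, which ruptures the plasma membrane of dying cells, was the most abundant. Of 6 other ligands of the IL-1 family, Il33 was the one listed, at 0 in all 8 libraries, and the others were not among the names matched here.

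Of 4 tested genes for cytokines outside the IL-1 family, 2 were lower. Il10, an anti-inflammatory cytokine, was listed at 18.6, 23.6, 36.4 and 29.2 FPKM in LysM0 to LysM3 and at 16.5, 17.1, 17.9 and 15.0 FPKM in K2KO0 to K2KO3. All K2KO libraries were below all LysM libraries and closer to each other (log2 fold change -0.65, 95% interval -1.05 to -0.25, limma adjusted p = 0.0333). Il10 passed in only 1 of 8 fits with a library left out. Ccl2, a chemokine that attracts monocytes, was listed at 8.23, 16.8, 19.4 and 16.1 FPKM in LysM0 to LysM3 and at 8.59, 5.90, 6.27 and 9.37 FPKM in K2KO0 to K2KO3. LysM0 lay among the K2KO libraries, and the log2 fold change was -0.96 (95% interval -1.54 to -0.37, limma adjusted p = 0.0335). Ccl2 passed in 2 of 8 fits with a library left out. Tnf, the cytokine tumour necrosis factor, had the opposite sign and did not pass, at 4.73 ± 0.926 FPKM in LysM and 6.38 ± 0.751 in K2KO (log2 fold change 0.44, 95% interval 0.13 to 0.74, limma adjusted p = 0.0511).

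With each library left out in turn, Ddx3x passed in 8 of 8 fits. Brcc3 and Ikbkg passed in 4 of 8 and lost the call without LysM1, LysM3, K2KO1 or K2KO2, with limma adjusted p-values of up to 0.0708 and 0.0798. Traf6, Pstpip1 and Ccl2 passed only without LysM0 or K2KO3, Il10 only without LysM0 and Nlrc4 only without K2KO3, and the limma adjusted p-values otherwise reached 0.0980, 0.105, 0.113, 0.113 and 0.107 respectively. Their directions held in all of these fits. Of the named pathway genes not called on all 8 libraries, Rela and Naip5 passed in 2 of 8 such fits and Tnf in 1 of 8. Over 11 other settings of the analysis, Ddx3x passed in 11, Brcc3, Ikbkg and Il10 in 8, Ccl2 in 7, Pstpip1 in 6, Traf6 in 5 and Nlrc4 in 3. By ordinary least squares the adjusted p was 0.0910 for Il10 and 0.0945 for Ccl2, and with no filter on low values the limma adjusted p was 0.0741 and 0.0769. With a replicate block and the GC and length correction together the limma adjusted p was 0.0514 for Il10 and 0.0782 for Ccl2. For Nlrc4 it was 0.0542 under upper-quartile scaling, 0.120 under quantile normalization, 0.0511 with a limit of 0.1 FPKM and 0.0925 with none, and 0.0683 by ordinary least squares. With the correction for GC content and length, Ddx3x (log2 fold change 0.37), Il10 (-0.69) and Ccl2 (-0.99) passed, and Nlrc4, Brcc3, Traf6, Ikbkg and Pstpip1 did not, with limma adjusted p-values of 0.143, 0.181, 0.185, 0.0662 and 0.108. In that fit 10% of all tested genes passed, among them 4 pathway genes that did not pass without the correction on all 8 libraries at the same settings, Naip5 (-0.43), P2rx7 (-0.28), Ninj1 (0.32) and Tnf (0.53).

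**Figure D4:**
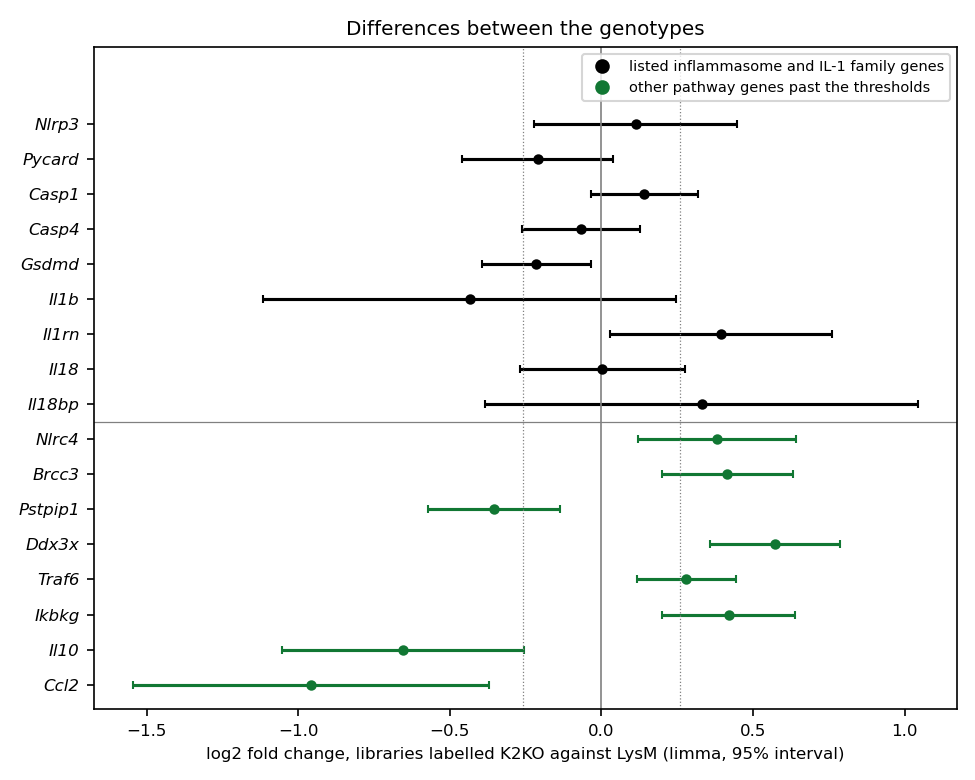
Log2 fold change of the libraries labelled K2KO against LysM by limma (x axis) with its 95% interval, for the 9 tested inflammasome and IL-1 family genes (black) and the 8 other pathway genes that passed the thresholds (green). Dotted lines mark the fold threshold of 0.26 on either side of 0, and among the black intervals those of Gsdmd and Il1rn leave out 0.

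Markers of other cell types were read beside these results. The summed FPKM of the 9 macrophage markers was 4073 ± 84.0 in LysM and 3796 ± 64.0 in K2KO (SD, n = 4 each, exact two-sided permutation test, p = 0.0286). Their median log2 fold change was -0.043, with 4 positive and 5 negative. The sum is weighted towards the most abundant markers, Cd68 and Cd14, and the summed FPKM of all genes also ran lower in K2KO, as given above. Cd14, a co-receptor for lipopolysaccharide, went from 1028 ± 56.7 to 829 ± 118 FPKM without overlap of the groups (log2 fold change -0.32, limma adjusted p = 0.0630). Of the 9, Mertk, a receptor for dying cells, was higher (log2 fold change 0.36, limma adjusted p = 0.0285), though not with the GC and length correction (0.28, limma adjusted p = 0.0752), and Lyz2, the locus that carries Cre in both groups, was lower (-0.49, limma adjusted p = 0.0260). With each library left out in turn Mertk passed in 2 of 8 fits and Lyz2 in 4. Of 10 neutrophil markers 8 were tested and Camp, a granule peptide, was lower (-1.14, limma adjusted p = 0.0178, passed in 5 of 8 fits with a library left out), while their sum, led by S100a9 at 129 FPKM, was 187, 273, 235 and 323 FPKM in LysM0 to LysM3 and 178, 296, 233 and 311 FPKM in K2KO0 to K2KO3. The sums of the 2 groups were close (exact two-sided permutation test, p = 1.0), so neutrophil markers as a sum did not move with genotype. Monocyte markers were led by Ccr2 at 18.7 FPKM and summed to 23.0 ± 7.06 FPKM in LysM and 21.2 ± 4.22 in K2KO. Of 7 dendritic cell markers, Ccr7 alone averaged over 1 FPKM, at 1.30, and the list summed to 2.04 ± 0.945 FPKM in LysM and 3.59 ± 1.37 in K2KO (exact two-sided permutation test, p = 0.0857). Markers of mast cells and basophils (led by Cpa3), lymphocytes (Cd79a) and fibroblasts (Dcn) were all under 1 FPKM on average. In LysM and K2KO they summed to 0.235 ± 0.158 and 0.426 ± 0.233 FPKM for mast cells and basophils, 0.939 ± 0.742 and 1.52 ± 0.568 for lymphocytes, and 0.541 ± 0.529 and 1.62 ± 1.204 for fibroblasts, with exact two-sided permutation p-values of 0.257, 0.143 and 0.171. All 5 fibroblast markers, all 4 lymphocyte markers and all 3 mast cell and basophil markers had the higher mean in K2KO, and no marker was at 0 in all libraries. The part of other cell types in the values of the 10 genes was not tested.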

How the data were processed

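RNA-sequencing libraries were prepared by the authors from BMDMs of 4 LysM and 4 K2KO mice with a stranded total RNA kit. The methods name TopHat2 and Cufflinks for alignment and quantification on mm10, whereas the submitters' processing notes name STAR, Cufflinks and Cuffdiff, without versions. The labels and the methods also name different RNA isolation kits. Expression was deposited as FPKM per gene and library, with replicates unpooled. Whether strand was used, and how the 23761 genes were chosen, is not given in the sources used here. FPKM carry no counts, so no counting error, detection limit or count-based test was possible. All 8 columns were used, and 0 columns of per-sample values were left out. Of the listed genes, 23645 matched GENCODE M21 on GRCm38 by Ensembl identifier, from which positions, GC content and transcript length were taken.

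Genes with a mean of at least 1 FPKM were tested after transformation to log2(FPKM + 0.1) with limma 3.58.1 (lmFit, eBayes with trend) in R 4.3.3, without covariates. The pseudocount makes fold changes of low genes smaller. The Benjamini-Hochberg adjustment was made over all 10920 tested genes. For single values an exact two-sided permutation test was run over the 35 splits of 8 libraries (Python 3.11.15, scipy 1.17.1), and figures were drawn with matplotlib 3.10.9. The columns do not identify mice, so that p-values measure the spread between these libraries. The fit was tested on simulated data.

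The named genes are the 10 genes, Klf2, pathway genes that were differentially expressed, and the most abundant gene of each pathway and marker list. Genes of nearest pattern were to be named for differentially expressed members only, and there were none. Gapdh, Actb, Mertk, Lyz2, Camp, Il1rap Cd14, Naip5, P2rx7, Tnf and overlapping genes were added once their values had been seen. The genes and lists were chosen with earlier results of these data known. Alternatives were other pseudocounts (1, 0.01), filters (0.1 FPKM or none), upper-quartile or quantile scaling, a local regression on GC content and length (span 0.3), limma without trend, ordinary least squares, a block on column number, and each library left out.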

Additional observations from a re-analysis of the deposited data

Results flagged for a closer look

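Of 108 groups of 4 libraries examined for a single library far from the others (each genotype, for the genes named above other than Il33, the 3 ratios and the 7 marker sums), 5 stood out, and chance gives about 5.4. In LysM, Nlrp3 was at 18.9 FPKM in LysM1, away from the other 3 LysM libraries by 0.904 of the range of the group. In K2KO, Ddx3x was at 32.4 FPKM in K2KO3, below the other 3 by 0.939 of the range. Also in K2KO, P2rx7, a receptor for extracellular ATP, was at 22.8 FPKM in K2KO1 (0.964 of the range above the others) and Rela at 78.8 FPKM in K2KO3 (0.859 above). In LysM, Ccr7 was at 0.302 FPKM in LysM0 (0.834 below).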

How the results depend on the processing

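The count of differentially expressed genes was 2014, and was 1090 with no filter on low values, 1095 with the correction for GC content and length, 746 by ordinary least squares and 864 with a replicate block and that correction together. With each library left out in turn it ranged from 337, without LysM3, to 2837, without K2KO3. Other named libraries lowered it too, to 736 without LysM1, 1030 without LysM2, 706 without K2KO0, 726 without K2KO1 and 496 without K2KO2. The count among the inflammasome and IL-1 family genes tested was 0 under all alternatives except that it ranged from 0 to 1 with libraries left out, the 1 being Pycard without LysM0.

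Column numbers were not taken as pairs, since no source ties them to a shared batch or animal, the deviations of same-numbered columns correlated at -0.07, 0.02, 0.07 and -0.06 over all tested genes, and not every library correlated best with its own number. The summed neutrophil markers, however, had the same order by number in both groups, and Il18 was lowest in column 0 of each. With a replicate block on the number, 2057 genes and 0 of the 9 tested here were called, and among the other pathway genes Nlrc4 (limma adjusted p = 0.0566) and Ccl2 (0.0585) were not. That of Klf2 was 0.140, against 0.460 without the block.

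Of 172 values of the 10 genes under alternatives, 164 kept their direction and side of the thresholds, 1 passed them and 7 turned in sign, all of Il18. It was -0.017 under upper-quartile scaling, -0.032 under quantile normalization and -0.0085 with the GC and length correction, alone or with the replicate block, and -0.089 to 0.085 with libraries left out. Klf2 was 0.039 with that correction, alone or with the replicate block. The log2 ratio of Il1a to Il1rn was -0.21 with a pseudocount of 1, -0.0083 under quantile normalization, and -0.20 to 0.36 with libraries left out. The causes were not tested. The share of all calls that were higher in K2KO was 53.3%, 44.2% with the GC and length correction and 46.1% under upper-quartile scaling.

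The FPKM carry no read counts, so how far depth limits a low value such as that of Il1a is unknown.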
